A study of Rattus norvegicus with 4 samples.

Results

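The 7 genes described here encode subunits of the GABA-A receptor, the chloride channel through which GABA inhibits neurons: the alpha subunits Gabra2, Gabra3, Gabra4, Gabra5 and Gabra6, the beta subunit Gabrb2 and the delta subunit Gabrd. They were chosen by name, as probes whose RefSeq accession belongs to one of these symbols, and they are 7 of the 16 GABA-A subunit genes considered here and of 15443 named genes in all. Each had 1 probe, printed as 2 spots. The study scored male rats in the forced swimming test, in which immobility is read as depressive-like behaviour, and took animals with such behaviour and animals with average scores, here called control, from 106 rats. Tissue was prepared 1 week after the test from 1-mm coronal slices of cerebellum (9.8 to 10.8 mm posterior to bregma) and prefrontal cortex (3.2 to 4.2 mm anterior to bregma), after perfusion with saline. There were 4 groups, cerebellum of control rats, cerebellum of depressive rats, prefrontal cortex of control rats and prefrontal cortex of depressive rats, and each was measured on 1 single-colour Agilent array with RNA pooled from 4 rats. All animals of all groups had swum. The rats carried no genetic change or drug treatment that the labels name, their strain and age are not given in the sources used here, and whether both tissues came from the same 4 rats is not stated.

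GABA-A receptors are built from 5 subunits, usually alpha, beta and either gamma or delta, and the alpha subunit sets how sensitive the channel is to GABA and to benzodiazepines. Many receptors with a gamma subunit gather at synapses, whereas receptors with delta lie outside them and respond to low ambient GABA, giving a steady (tonic) inhibition. In the cerebellum alpha6 is a product of granule cells, where it pairs with delta; in the forebrain delta pairs mainly with alpha4, and alpha5 forms receptors that lie largely outside synapses.

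All 4 arrays shared 1 slide. Levels are given as Agilent's processed fluorescence signal in arbitrary units, and differences as log2 after subtracting each array's 75th percentile of signal (3116 to 4369). Probes differ in brightness for the same amount of RNA, so levels are compared between arrays for a gene and never between genes. The linked files of 2 samples did not match their labels: the deposited value columns of control prefrontal cortex and depressive cerebellum each correlated at 0.9999 or above with the scanner file linked to the other sample and at 0.933 with their own, over 23207 probes, so each group was given the scanner file that its value column matches. The free-text descriptions of the depressive samples also name the tissue opposite to that in their titles and tissue labels, which were followed here. Read that way, 10 of 10 granule cell and 9 of 9 Purkinje cell markers were higher in cerebellum, and 7 of 7 cortical excitatory and 7 of 8 cortical interneuron markers were higher in prefrontal cortex, at a limma adjusted p under 0.05. Taken as linked, 0 of 12588 genes differed between tissues in limma (804 at an unadjusted p under 0.05), and 0 of the 7 subunit genes. With 2 arrays per tissue, 1 of each state, the tissue fit has 1 residual degree of freedom. That residual is how far the tissue difference varied between the states, and limma moderates it over genes. Its p-values therefore do not measure the spread between pools of a group, of which there was 1 each. Fewer cells of a type and less RNA per cell cannot be told apart in such tissue pools.

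The tissues differed in the levels of most of these subunit transcripts. In the limma fit, 6 of the 7 genes differed between tissues at an adjusted p under 0.05, where 68.1% of all 12588 genes tested did. Gabra6 and Gabrd were higher in cerebellum, and Gabra2, Gabra3, Gabra4 and Gabra5 were higher in prefrontal cortex; over all genes 31.5% were higher in cerebellum and 36.6% lower. Gabrb2 did not pass. The same 6 genes differed by 2-fold or more in the fit, against 23.3% of all genes, and the median size of difference was 2.94 on the log2 scale over the 7 genes and 0.45 over all genes. The genes were proposed with tissue results of these arrays known, so these shares describe them and are not independent evidence. All 7 passed the filter of being well above background on at least 2 arrays; 6 were well above it on all 4, and none was saturated. Gabra5 passed through prefrontal cortex alone, which fixed the sign of its difference, and it is among the 6 genes called. In the fit limited to genes well above background on all 4 arrays, 5 of 6 subunit genes were called, beside 8458 of 11623 genes.

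Gabra6, the granule cell alpha subunit, had a signal of 56442 in control and 60299 in depressive cerebellum, and of 104 in control and 44.4 in depressive prefrontal cortex. Both cerebellum arrays were far above both cortex arrays, and the signal in cortex remained well above background. The fitted difference was 9.36 ± 0.38 on the log2 scale (SE; 95% interval 8.08 to 10.6), 655-fold, with a limma adjusted p of 0.00233. It was 8.36 with normexp, 10.004 without the control cortex array and 8.71 without the depressive cortex array. Only 2 of the 12588 genes differed more in favour of cerebellum. Gabra6 in prefrontal cortex was 0.237% of its cerebellum level in control and 0.0982% in depressive rats.

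Gabrd, the delta subunit of tonic receptors, had a signal of 75461 and 81180 in control and depressive cerebellum and of 15103 and 16140 in control and depressive prefrontal cortex. It was high in one tissue and lower, but far from absent, in the other: the cortex level was 25.8% of the cerebellum level in control and 26.5% in depressive rats. The fitted difference was 1.93 ± 0.05 (SE; 95% interval 1.77 to 2.10), 3.82-fold, with a limma adjusted p of 0.00144. Gabra6 and Gabrd were thus both higher in cerebellum, with intervals of their differences that lie far apart.

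The promoters of these genes were of unlike composition, and those of the pair higher in cerebellum and of Gabra5, which differed most in the other direction, are shown for that contrast. Each is 300 bases in gene direction, 250 before and 50 after the RefSeq start site, from the GRCr8 build (the arrays' own coordinates are on an older build and were not used). Capitals mark the half-site of nuclear factor I, TTGGCA, a family of transcription factors that regulates Gabra6 in granule neurons, and the GC box GGGCGG bound by Sp1, each searched on both strands.
Gabra6 promoter, chr10:27327185-27327484, minus strand: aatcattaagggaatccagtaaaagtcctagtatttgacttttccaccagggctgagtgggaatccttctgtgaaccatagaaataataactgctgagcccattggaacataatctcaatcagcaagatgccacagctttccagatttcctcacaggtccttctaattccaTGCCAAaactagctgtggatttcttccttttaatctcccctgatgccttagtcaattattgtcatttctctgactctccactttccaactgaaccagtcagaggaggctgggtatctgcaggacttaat
Gabrd promoter, chr5:171252660-171252959, minus strand: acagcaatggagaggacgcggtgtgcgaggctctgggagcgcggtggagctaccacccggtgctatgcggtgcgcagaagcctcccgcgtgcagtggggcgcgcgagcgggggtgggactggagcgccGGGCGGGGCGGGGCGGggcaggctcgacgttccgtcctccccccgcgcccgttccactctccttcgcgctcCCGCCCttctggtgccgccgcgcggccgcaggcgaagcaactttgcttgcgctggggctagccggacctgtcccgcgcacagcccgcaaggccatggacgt
Gabra5 promoter, chr1:117516557-117516856, minus strand: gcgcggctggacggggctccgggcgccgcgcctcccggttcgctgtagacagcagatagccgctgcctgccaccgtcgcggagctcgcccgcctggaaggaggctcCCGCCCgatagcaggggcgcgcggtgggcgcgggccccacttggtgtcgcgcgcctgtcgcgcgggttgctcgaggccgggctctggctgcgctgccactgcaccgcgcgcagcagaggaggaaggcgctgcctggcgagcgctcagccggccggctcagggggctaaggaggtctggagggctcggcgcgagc

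The Gabra6 window held 42.3% G or C, no CpG (0), no GC box and 1 nuclear factor I half-site, at position -79 from the start site. Its letters are on the strand opposite to the gene, so they read TGCCAA above. The Gabrd window held 73.7% G or C, 40 CpG and 4 GC boxes, of which 3, at positions -122, -117 and -112, overlap each other and 1 lies at -51. The Gabra5 window held 76.3% G or C, 42 CpG and 1 GC box, at -144. Of 33469 rat promoters of the same length, 14.0% held the half-site and 33.1% the GC box, and the median G or C content was 51.7%, with quartiles of 44.7% and 60.3%. The windows of Gabra4 (70.7% G or C) and Gabrd lie on the same side of that range although their genes differed in opposite directions between tissues; those of Gabrb2 (44.0%) and Gabra3 (39.3%) were, like that of Gabra6, below the lower quartile. A match of letters describes the window and does not show that a factor binds it. Promoters of 6 of the 7 genes were in the RefSeq table; Gabra2 had none there.

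**Figure D1:**
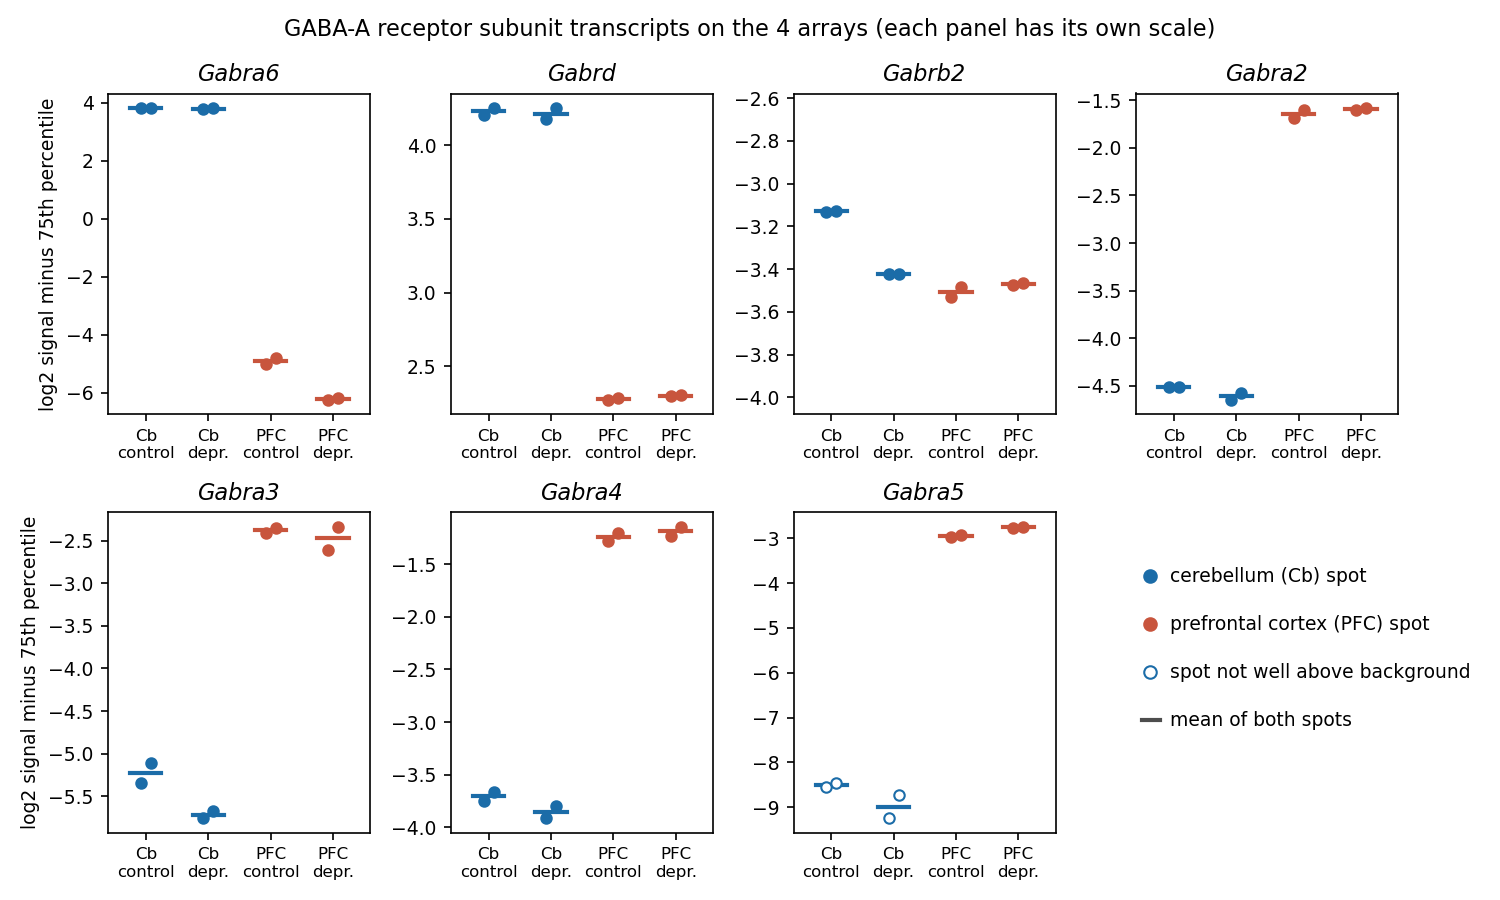
Log2 processed signal minus the array's 75th percentile (y axis, own scale in each panel) of the 7 subunit genes on the 4 arrays (x axis); points are the 2 spots of a probe and lines their mean. Gabra6 and Gabrd sit higher on both cerebellum arrays, Gabra2, Gabra3, Gabra4 and Gabra5 on both prefrontal cortex arrays, and Gabra6 is the gene whose 2 cortex arrays stand apart, at -4.91 in control and -6.21 in depressive rats.

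Gabra2, an alpha subunit of forebrain synapses that benzodiazepines act on, had a signal of 177 in control and 179 in depressive cerebellum and of 995 and 1087 in control and depressive prefrontal cortex. The cortex arrays did not overlap the cerebellum arrays. The fitted difference, cerebellum minus prefrontal cortex, was -2.94 ± 0.07 (SE; 95% interval -3.16 to -2.72), or 7.67-fold higher in cortex, with a limma adjusted p of 0.00134.

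Gabra3, an alpha subunit found in cortex and in monoamine nuclei, had a signal of 107.1 and 83.1 in control and depressive cerebellum and of 600 and 590 in control and depressive prefrontal cortex. Again both cortex arrays were above both cerebellum arrays, and the fitted difference was -3.05 ± 0.13 (SE; 95% interval -3.47 to -2.63), 8.27-fold, with a limma adjusted p of 0.00235 (-2.28 with normexp). Gabra4, the usual forebrain partner of delta, had a signal of 308 and 302 in control and depressive cerebellum and of 1320 and 1440 in control and depressive prefrontal cortex. It differed by -2.57 ± 0.08 (SE; 95% interval -2.82 to -2.31), 5.93-fold, with a limma adjusted p of 0.00165. The intervals of Gabra2, Gabra3 and Gabra4 overlap one another, so the order of these 3 differences is not resolved here.

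Gabra5 had a signal of 401 in control and 484 in depressive prefrontal cortex. Its signals of 11.1 and 8.60 in control and depressive cerebellum were not well above background, so the size of the difference is uncertain. Against the lowest signal that counted as well above background on the array, Gabra5 was 42.4-fold higher in prefrontal cortex in depressive rats. In control cerebellum the probe's own 11.1 was higher than that lowest signal (8.36). The control value, 46.6-fold, is therefore the ratio as measured with a dim signal, and it enters the value of 44.5-fold over both states. The limma fit, which uses the dim values as they are, gave -5.89 ± 0.21 (SE) with an adjusted p of 0.00199. When the background was corrected with the normexp method it gave -3.15, a smaller difference than these folds. The folds thus hold only for the background correction of the scanner files.

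Gabrb2, a beta subunit that lines the channel and helps form the GABA site, had a signal of 460 and 407 in control and depressive cerebellum and of 274 and 296 in control and depressive prefrontal cortex. After scaling these are -3.13, -3.42, -3.51 and -3.47, so the depressive cerebellum array lies much nearer the cortex arrays than the control cerebellum array does. The difference of 0.21 ± 0.11 (SE; 95% interval -0.16 to 0.58) did not pass in limma (adjusted p = 0.190). Without the depressive cerebellum array it was 0.36 and passed (adjusted p = 0.0243); without the control cerebellum array it was 0.06 (adjusted p = 0.461).

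Of the 9 other subunit genes considered, 5 could be tested. In limma 3 genes measured in both tissues were higher in prefrontal cortex, as were 36.6% of all genes, and the other 2, Gabrg3 and Gabrr2, passed the filter through cortex alone and could only come out higher there. The beta subunit Gabrb1 differed by -1.24 (limma adjusted p = 0.00260), and Gabrg1, a gamma subunit also made by glia, by -0.91 (limma adjusted p = 0.00330). Gabrq, the theta subunit, differed by -0.27 with a limma adjusted p of 0.0451; it missed the threshold under several alternatives, with adjusted p of 0.111 without depressive cerebellum, 0.142 without depressive cortex and 0.184 without control cortex. Against the lowest signals well above background in cerebellum, Gabrg3 and the rho subunit gene Gabrr2 were 3.76-fold and 2.92-fold higher in cortex. With normexp their fitted differences shrank to -0.76 and -0.60, smaller than these folds, and Gabrr2 missed the threshold in some alternatives (adjusted p up to 0.0743). Gabre, the epsilon subunit gene, passed the background criterion in control cerebellum only, and Gabrp, Gabrr1 and Gabrr3 on none.

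Most of these subunit genes lie in clusters in the rat genome, with at most 1 protein-coding gene between neighbours, while Gabrd, Gabrp and Gabrr3 lie outside them. Within each of the 4 clusters with 2 or more tested genes considered here the tissue differences shared a sign. The neighbours Gabra6 and Gabrb2 both differed by more than 0 (9.36 and 0.21), although only Gabra6 passed. In the cluster Gabrb1, Gabra4, Gabra2 and Gabrg1, all 4 were higher in prefrontal cortex (-2.94 to -0.91). The neighbours Gabrg3 and Gabra5 were also both higher in cortex, but both had passed the filter through cortex alone, which fixes their sign. Higher in cortex, too, were Gabra3 and Gabrq, the 2 tested genes of the X-linked cluster with Gabre. Wherever a cluster had 2 or more genes in the fit, its genes shared a sign under every alternative except the files as linked and the fit without the filter on dim genes. Without that filter Gabre entered the fit, with a sign opposite to that of its cluster. The pair Gabrg3 and Gabra5 did not enter the fit limited to genes well above background on all 4 arrays. Clusters were set beside the differences after these had been seen, and no test of the shared direction was made. Within a cluster sizes varied widely, most of all between Gabra6 and its direct neighbour Gabrb2.

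**Figure D2:**
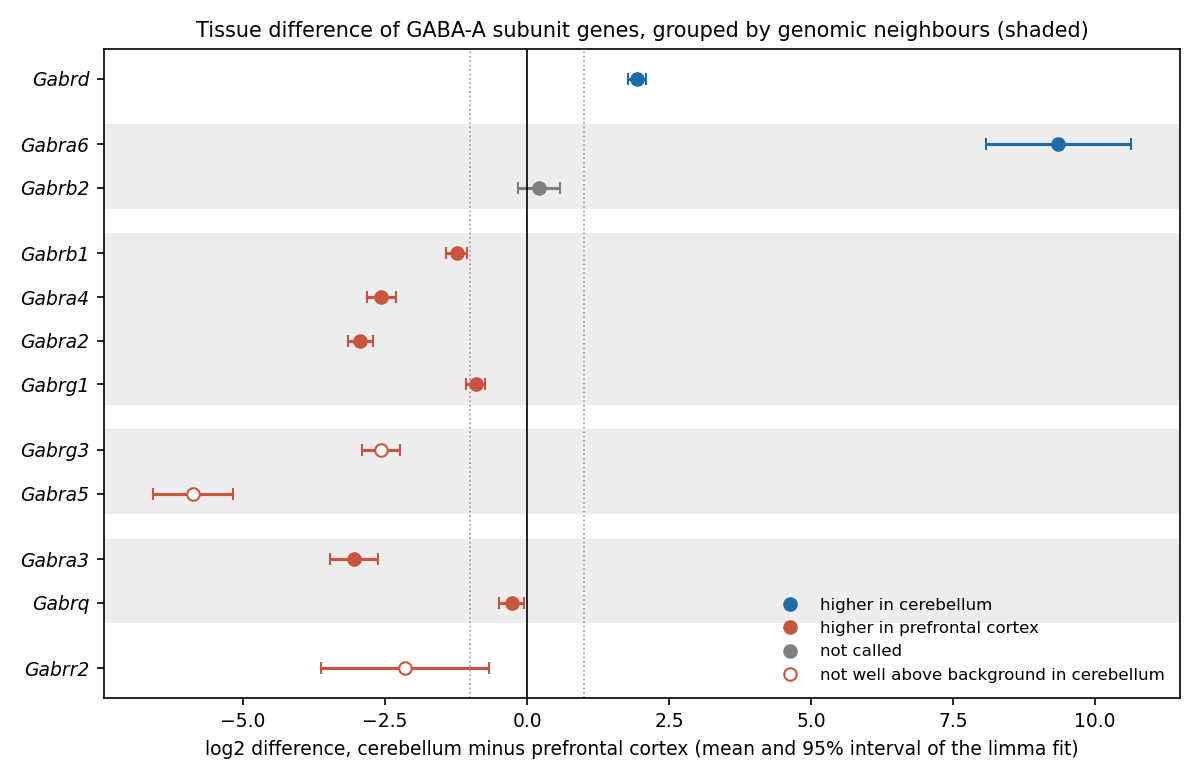
Log2 difference, cerebellum minus prefrontal cortex, with 95% interval of the limma fit (x axis) for the 12 tested subunit genes (y axis); shaded bands join genomic neighbours, open points were not well above background in cerebellum, and dotted lines mark 2-fold. Gabra6 lies at 9.36 and its neighbour Gabrb2 at 0.21, and the band from Gabrb1 to Gabrg1 lies wholly below 0.

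Genes that act on the same receptors were read from lists. Of 21 genes for receptor assembly, trafficking and anchoring, 4 were higher in cerebellum, 11 were higher in prefrontal cortex and 6 did not pass in limma (median -0.39, against -0.04 for all genes). Over all genes 68.1% passed, 31.5% higher in cerebellum and 36.6% higher in cortex, which is also the background for the lists that follow. Shisa7, which speeds GABA-A receptor trafficking and kinetics, differed by -4.81, Slitrk3, an adhesion protein of inhibitory synapses, by -2.95, and Iqsec3, a gephyrin-binding exchange factor, by -1.76 (limma adjusted p = 0.00118, 0.00140 and 0.00153). Averaging the probes of a gene in place of taking the brightest gave -3.44 for Shisa7. Of 7 genes for GABA synthesis, transport and breakdown, 5 were higher in cerebellum, where 31.5% of all genes were, 0 were higher in cortex and 2 did not pass (median 0.66). Slc6a13, a GABA transporter that meninges also express, differed by 2.01, the synthetic enzyme Gad1 by 1.00 and the vesicular transporter Slc32a1 by 0.68 (limma adjusted p = 0.00438, 0.00325 and 0.00726). The 6 meningeal fibroblast markers were all higher in cerebellum too (summed relative level 89.3 and 97.3 in control and depressive cerebellum, 18.8 and 37.2 in control and depressive cortex, most of each sum from Ptgds). The part of meningeal cells in the Slc6a13 difference was not tested.

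Among 4 genes of the GABA-B receptor, the G protein-coupled GABA receptor, 1 was higher in cerebellum, 2 in cortex and 1 did not pass, beside 68.1% of all genes passing: its auxiliary subunits Kctd16 and Kctd8 differed by -5.51 and 1.196, and the receptor subunit Gabbr2 by -1.14 (limma adjusted p = 0.00118, 0.00348 and 0.00248). With normexp Kctd16 differed by -4.32. Of 7 genes that set neuronal chloride, 2 were higher in cerebellum, 4 in cortex and 1 did not pass (68.1% of all genes passed). The chloride importer Slc12a2 differed by 1.72 and the chloride channel Clcn2 by -1.24 (limma adjusted p = 0.00181 and 0.00437), while the kinase Wnk3, one of the 4, was not well above background in cerebellum and so could only come out higher in cortex. Of 9 genes for neurosteroids and benzodiazepine-site ligands, which tune these receptors, 6 were higher in cerebellum, where 31.5% of all genes were, 1 was higher in cortex and 2 did not pass (median 0.56). Akr1c14, which makes allopregnanolone, a steroid to which delta receptors respond strongly, differed by 1.31, Star, the mitochondrial cholesterol carrier, by 1.25 and Akr1c19 by -1.14 (limma adjusted p = 0.0159, 0.00612 and 0.00360). The first 2 depended on the processing: with normexp Akr1c14 differed by 0.45 and Star by 0.18, the latter no longer passing (adjusted p = 0.0623), and without depressive cerebellum Akr1c14 differed by 1.28 and missed the threshold (adjusted p = 0.0504).

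The genes whose 4 values ran closest to each subunit, by Euclidean distance between log2 values centred on their mean over 4 arrays and 12587 genes, were Crtam (0.333) and Ppp1r17 (0.380) for Gabra6, Mcm4 (0.0329) and Slc19a1 (0.0442) for Gabrd, Slitrk3 (0.0218) and Jakmip1 (0.0693) for Gabra2, and Sstr4 (0.220) and Grin2b (0.242) for Gabra5. For Gabra3 they were Samd5 (0.0590) and Kalrn (0.0701), for Gabra4 Cartpt (0.0693) and Epop (0.0714), and for Gabrb2 Nup42 (0.0167) and Calhm3 (0.0356). With 4 arrays, such likeness mostly restates the tissue difference; Gabra6 had the most distant nearest gene of the 7.

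The second question of the design was whether depressive rats differed from controls. Within a tissue there was 1 array for each state, so no test is possible there. Across both tissues, limma called 0 of the 7 genes, and 0 of 12588 genes in all (0%; 804 at an unadjusted p under 0.05, none of them among the 7). The largest of the fitted state differences was that of Gabra6, -0.66 ± 0.38 (SE; 95% interval -1.94 to 0.62; adjusted p = 0.748), followed by Gabra3 at -0.29 (adjusted p = 0.738). The other 5 lay between -0.14 and 0.00, beside a median of -0.02 over all genes. These intervals rest on the same 1 residual degree of freedom and hold no spread between pools of a group. They therefore neither bound the difference between such animals nor show that the states were alike. The interval was narrowest for Gabrd and widest for Gabra6.

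In cerebellum, no subunit gene reached 2-fold between depressive and control rats (0 of 6 measured), where 1.1% of 12680 genes did. All 6 lay below 0, as did 58.9% of genes measured on both arrays. The lowest were Gabra3 at -0.49 (SE between spots 0.23) and Gabrb2 at -0.29 (SE between spots 0.09), and the highest were Gabra6 at -0.02 and Gabrd at -0.015, which turned to slightly above 0 (0.01 and 0.004) under other scalings. The SE between spots was pooled over the 500 probes nearest in brightness and is not taken from the gene's own spots alone. It holds only the printing and scanning error of 1 array each, not the spread between animals. Gabra5 was not well above background on either array.

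In prefrontal cortex, 1 of the 7 genes reached 2-fold, where 0.787% of 12572 genes did in either direction and 0.326% were lower in depressive rats. That gene was Gabra6, with a signal of 104 (spots 96.1 and 112) in control and 44.4 (spots 43.7 and 45.2) in depressive rats. After scaling, the difference was -1.30 (SE between spots 0.17; the spots gave -1.38 and -1.21), 2.46-fold lower in depressive rats, and the spots of the 2 arrays did not overlap. With normexp background correction it was -0.64, under 2-fold. Gabra5 was next in size at 0.20 (SE between spots 0.07), and the other 5 lay between -0.10 and 0.05. In all, 5 of the 7 lay above 0, as did 46.8% of genes measured on both arrays. Gabrd, the receptor partner of Gabra6 in cerebellum, differed by 0.02 in cortex.

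**Figure D3:**
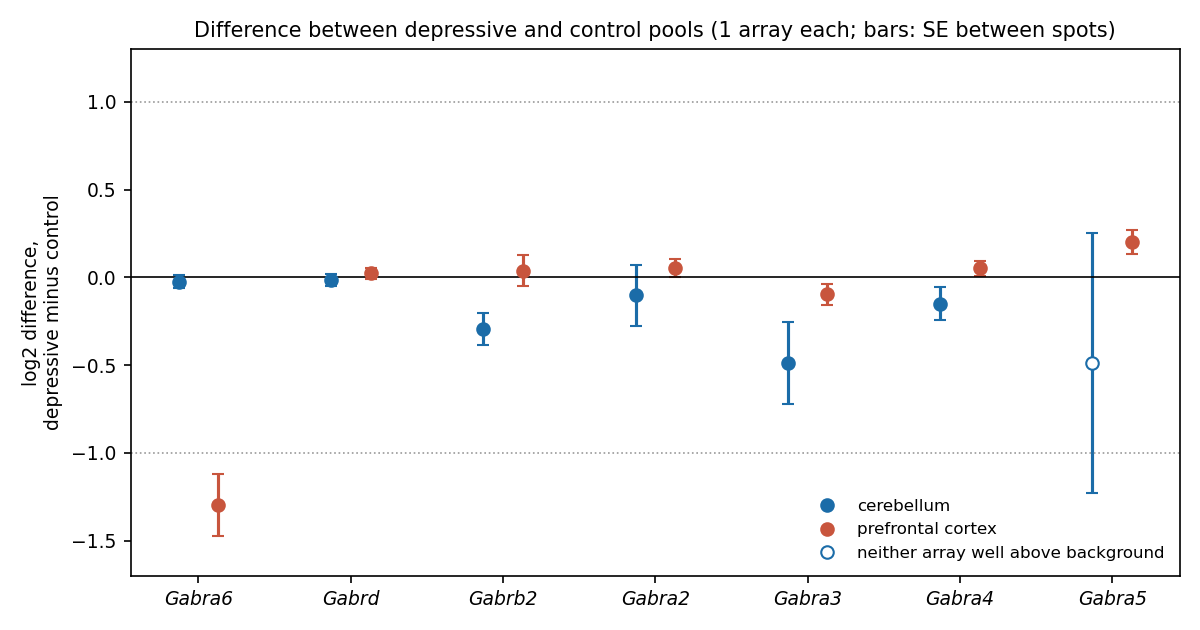
Log2 difference, depressive minus control (y axis), of the 7 subunit genes (x axis) in cerebellum and in prefrontal cortex, 1 array each. Bars are the SE between spots, pooled over the 500 probes nearest in brightness. The open point is a gene not well above background on either array, and dotted lines mark 2-fold. Gabra6 in prefrontal cortex lies at -1.30, past the 2-fold line, and every other measured point lies between -0.49 and 0.20.

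Markers of granule cells and of other cell types did not all move the way Gabra6 did: some fell in depressive cortex and others rose. Of the granule cell list, 9 of 10 markers were measured on the cortex arrays. Of these, 4 lay above 0 and 5 below, 0 reached 2-fold, and the median was -0.10. The summed relative level of the list was 6.83 in control and 6.26 in depressive cortex (95.7 and 93.1 in cerebellum). Bright probes weigh most in such sums, and most of the cortex sum came from Grin2c (signal of 16160 in control and 15872 in depressive cortex). Fat2, a cadherin of granule cell axons, was not well above background on either cortex array. Of the 9 Purkinje cell markers, 3 lay above 0 and 6 below (median -0.13). Their summed relative level was 23.0 in control and 21.4 in depressive cortex, most of it from Itpr1 (signal of 66099 and 65248). Lower by 2-fold or more were 2 of them, where 0.326% of all genes were: Pcp2, with a signal of 619 in control and 277 in depressive cortex (-1.23), and Ppp1r17, with 43.4 and 14.9. The latter signal was not well above background, so the 3.06-fold drop of Ppp1r17 is a ratio to a dim signal and not a bound.

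Among granule and Purkinje cell markers measured in control cortex, those with the largest drop between the cortex arrays were those whose cortex level was the smallest share of the cerebellum level. Gabra6 stood at 0.237% of its cerebellum level in control cortex, and 3 measured granule or Purkinje markers stood under 1% there: Cbln1, a granule cell synapse organiser, at 0.601%, Pcp2 at 0.511% and Ppp1r17 at 0.311%. All 3 were lower in depressive cortex, by 1.72- to 3.06-fold, to 0.354%, 0.242% and 0.113% of the cerebellum level. The values of 3.06-fold and 0.113% belong to Ppp1r17, whose signal there was not well above background. The other 15 markers, at 1% or more, split into 8 below and 7 above 0, with a median of -0.09 and a range from -0.46 (Calb2) to 0.24 (Zic2). The line at 1% was drawn after the values had been seen, so this split is a description. Choroid plexus markers were also higher in cerebellum (6 of 6 in limma, where 31.5% of all genes were), though Kl passed the filter through cerebellum alone. In cortex they moved the same way: 4 of 5 measured were lower by 2-fold or more (median -1.26), where 0.326% of all genes were. Among these 4, Otx2 had a depressive signal of 11.0 that was not well above background, while the fifth marker, Kcnj13, was higher by 0.57. The summed relative level of the choroid plexus markers was 8.32 in control and 1.94 in depressive cortex, nearly all of it from Ttr (8.22 and 1.85). Their median in cerebellum was 0.67. Meningeal fibroblast markers went the other way in cortex, with 6 of 6 above 0 (median 0.87), and their summed level went from 18.8 to 37.2, mostly through Ptgds. Red blood cell markers rose too, and 3 of 3 were 2-fold higher in depressive rats in both tissues. Over all genes, 1.1% in cerebellum and 0.787% in cortex reached 2-fold in either direction. All 6 oligodendrocyte markers also lay above 0 in cortex (median 0.38), while of 6 astrocyte and Bergmann glia markers 1 lay above and 5 below (median -0.03). The part of these cell types in the Gabra6 difference was not tested.

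**Figure D4:**
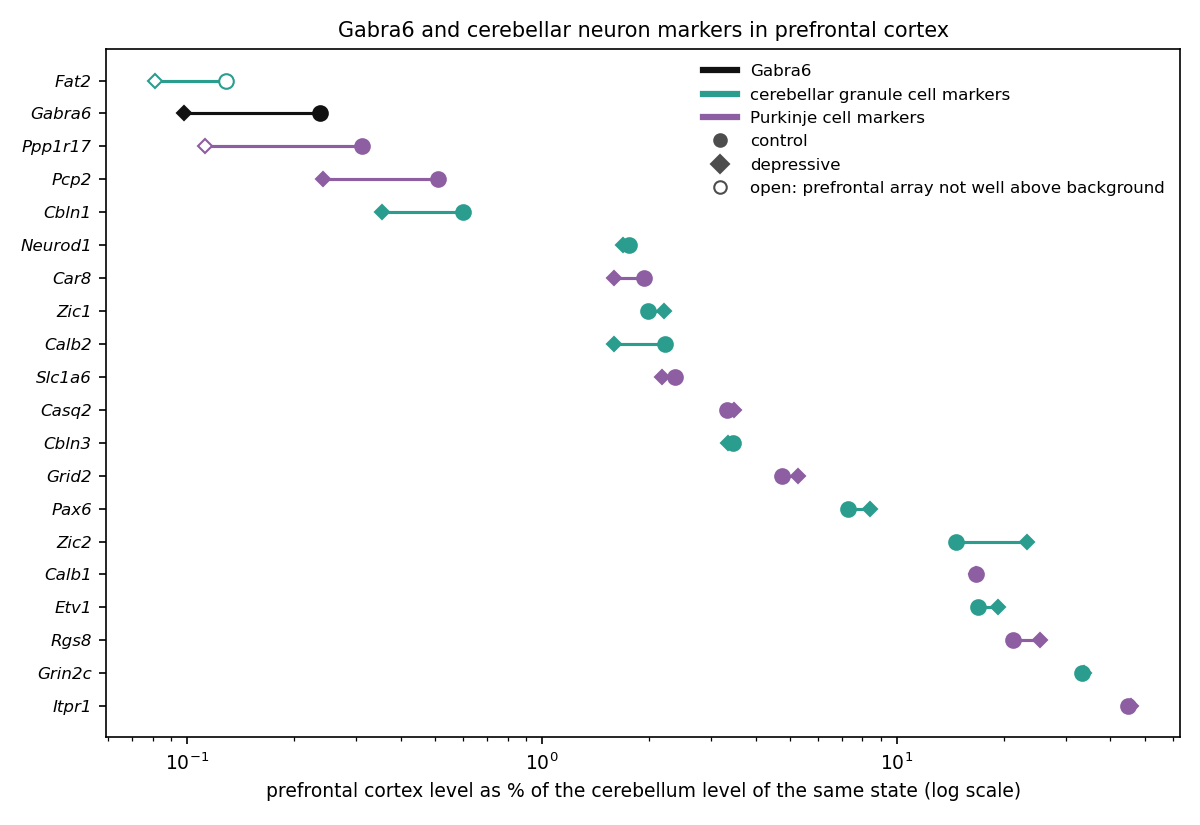
Prefrontal cortex level as a percent of the cerebellum level of the same state (x axis, log scale) for Gabra6 and the granule and Purkinje cell markers (y axis); circles are control, diamonds depressive rats, and open symbols were not well above background in cortex. Gabra6 moves from 0.237% to 0.0982%, and the measured markers under 1% (Ppp1r17, Pcp2 and Cbln1) also move to the left.

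Among the lists of GABA-related genes, 1 gene reached 2-fold between states in either tissue. Over all genes, 1.1% did so in cerebellum and 0.787% in prefrontal cortex. Cyp11a1, which makes pregnenolone, the first step of steroid synthesis, had a signal of 25.5 in control and 12.3 in depressive prefrontal cortex, a difference of -1.12. It did not pass between tissues in limma (0.43, adjusted p = 0.337), but without the control cortex array it did (0.99, adjusted p = 0.00759), and its signals were close to the lowest that counted as well above background (8.98 in control and 8.87 in depressive cortex). None of the 21 assembly and anchoring genes, 7 GABA synthesis and transport genes or 4 GABA-B genes measured reached 2-fold in either tissue. Nor did any of the chloride genes, of which 7 were measured in cortex and 6 in cerebellum. Of the 9 other subunit genes, 5 were measured in prefrontal cortex and 3 on both cerebellum arrays, and none of these reached 2-fold. Gabre, not well above background in depressive cerebellum, was 1.86-fold lower there against the lowest signal that counted as such (15.2) than in control cerebellum (26.0). That is not a firm bound, because on the same array Cyp11a1 at 32.5 and Vip at 29.5 were not well above background either.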

How the data were processed

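RNA pools of 4 rats per group were hybridised to 1 single-colour Agilent array each. Per the file headers, signals were extracted with Agilent Feature Extraction 10.7.1.1. The deposited scanner files give background-corrected intensity per spot, and the authors' deposited value table holds the same signal on a linear scale, divided by 1 constant per array that is not stated and not centred by gene (column medians 0.324 to 0.332). Control spots and outlier spots (248 to 316 per array) were left out, spots of a probe averaged, and probes named by RefSeq accession (18355 of 30367; the brightest per gene kept, 15443 genes). Log2 intensity minus the array's 75th percentile was fitted with limma 3.58.1 (tissue and state), over genes well above background on at least 2 of 4 arrays, with Benjamini-Hochberg adjustment over all 12588; the code was tested on simulated data. With 1 array per group, the number of arrays limits the precision. A gene dim on every array of a tissue is given against the lowest signal well above background, or against its own signal where that was higher. Some probes brighter than that lowest signal were not well above background, so such a fold is not a firm bound. Genes named are the subunits (some are not reported here), the 3 with the largest tissue difference and any at 2-fold between states in each accompanying list, and the 2 nearest to each member. Alternatives were normexp (offset 50, on spot median signals in place of the planned mean signals), quantile and median scaling, other filters, the mean over probes, the value table, the files as linked and arrays left out. The 75th percentile over probes was added after seeing the data. Members and lists were chosen with earlier results of these data known. Analyses used R 4.3.3 and Python 3.11.15.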

Additional observations from a re-analysis of the deposited data

How the results depend on the processing

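No paired analysis was possible because each group has 1 array and no replicate numbers to share beyond it. Apart from the files as linked, the count of subunit genes called was within 1.5 times of 6 between tissues and was 0 between states under every alternative run; genes called between tissues numbered 6727 to 7850 with 1 array left out. Normexp called 5 genes between states, none of them among the 7 described. It turned Cyp11a1 between tissues to -0.14 (-0.13 to 0.99 with 1 array left out) and the state differences of Gabra5 to 0.016 and of Gabrd to -1.5e-05. Quantile normalization turned Gabra5 to 0.067 and median scaling turned Gabrd to -0.0038. Taking the files as linked exchanges tissue for state on 2 arrays. It left 0 genes and 0 subunit genes between tissues, and called 8575 genes and 6 subunit genes between states. Tissue differences then turned to 0.024 (Gabra2), 0.29 (Gabra3), 0.049 (Gabra4), 0.14 (Gabra5), 0.023 (Gabrb1), -0.0039 (Gabrd), 0.12 (Gabrq), 0.095 (Shisa7), 0.0068 (Slitrk3), 0.047 (Iqsec3), -0.16 (Slc6a13), -0.0017 (Gad1), 0.019 (Kctd16), -0.094 (Kctd8), 0.053 (Gabbr2), -0.17 (Slc12a2), 0.057 (Clcn2) and -0.37 (Akr1c14). State differences turned to 2.94 (Gabra2), 3.05 (Gabra3), 2.57 (Gabra4), 5.89 (Gabra5) and -1.93 (Gabrd). Cerebellum minus cortex turned in controls to 0.10 (Gabra2), 0.49 (Gabra3), 0.15 (Gabra4) and 0.49 (Gabra5), and in depressive rats to 0.10 (Gabra3) and -0.023 (Gabrd). Outside the files as linked, tissue differences ranged from 8.36 to 10.004 for Gabra6, 1.92 to 2.10 for Gabrd and -6.13 to -3.15 for Gabra5. Cerebellar Gabra5 was not above background, and animals within a pool cannot be told apart.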
